A study of Sus scrofa with 14 samples.

Results

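Prohormone processing was followed in the pig knee meniscus through 4 genes: SCG5, PCSK1, PCSK2 and CHGA. They were read by 7 of the 43603 non-control probes on the array, and they are 4 of the 2389 genes that could be named there. A probe was taken as a member when its RefSeq transcript, as printed in the scanner files, belonged to one of the 4 genes. SCG5 had 2 probes, PCSK1 had 3, PCSK2 had 1 and CHGA had 1. SCG5 was chosen by its higher level, relative to the rest of the array, in operated animals on these same arrays, so its values between the groups are given below as a description, with no p, and nothing is read from its place in the fit. The other 3 genes were added as its partners.

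The tissue came from male Wuzhishan pigs aged 6 to 7 months per the labels. The sham group held 7 animals whose meniscus was taken 24 weeks after a sham operation. The osteoarthritis (OA) group held 7 animals in which the anterior cruciate ligament had been operated on, again 24 weeks before sampling. No transgene or drug is named for either group, and how the ligament was injured and which meniscus was dissected are not given in the sources used here. Each animal was read on 1 single-colour (Cy3) array of labelled RNA, with 1 time point, 1 sex and 1 breed. In whole tissue, fewer cells of a type and less RNA per cell cannot be told apart.

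Many peptide hormones are made as longer, inactive precursors. Inside the secretory granules of neurons and endocrine cells the convertases PCSK1 (PC1/3) and PCSK2 (PC2) cut the precursors at pairs of basic residues, and carboxypeptidase E then trims the new ends. SCG5, also called 7B2, is a small granule protein that binds the PCSK2 proenzyme, helps it to mature and keeps it from acting too early. CHGA, chromogranin A, is an abundant acidic granule protein and a general marker of neuroendocrine cells. The meniscus is a fibrocartilage pad and is not known as an endocrine tissue.

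Signals are the scanner software's processed signal in arbitrary units. A relative level is the log2 signal minus the 75th percentile of the same array, so that 0 marks that percentile. A change is the difference of relative levels, OA minus sham. The arrays of the 2 groups were not alike. The 75th percentile ran from 418 to 622 on the sham arrays and from 156 to 492 on the OA arrays, and 89.7% to 95.2% of probes against 67.9% to 89.3% were marked well above background. No slide held both groups: sham arrays filled slides 1 and 2, and the OA arrays were OA 1 on slide 3, OA 2 to OA 5 on slide 4 and OA 6 and OA 7 on slide 5, where arrays with 1 scan time were counted as 1 slide. All sham arrays were scanned on day 1, OA 1 on day 2 and the other OA arrays on day 3. Slide, scan day and group therefore cannot be told apart. The dimmest signal still marked well above background was 4.87 to 7.25 on sham arrays and 5.95 to 8.84 on OA arrays.

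Of the 7 member probes, 1 was well above background on all 14 arrays, and 4 met the brightness needed for the test (at least 7 arrays). These 4 were both SCG5 probes, 1 of the PCSK1 probes and the PCSK2 probe. Of the 4, 1 passed an adjusted p of 0.05 in limma's fit over 38818 probes, where 3.73% of all probes passed in either direction, 2.89% higher and 0.848% lower in OA. It was the SCG5 probe for which the gene had been chosen, so nothing is read from that count. PCSK1 and PCSK2 did not pass, and CHGA and the other 2 PCSK1 probes were too dim to be tested.

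**Figure D1:**
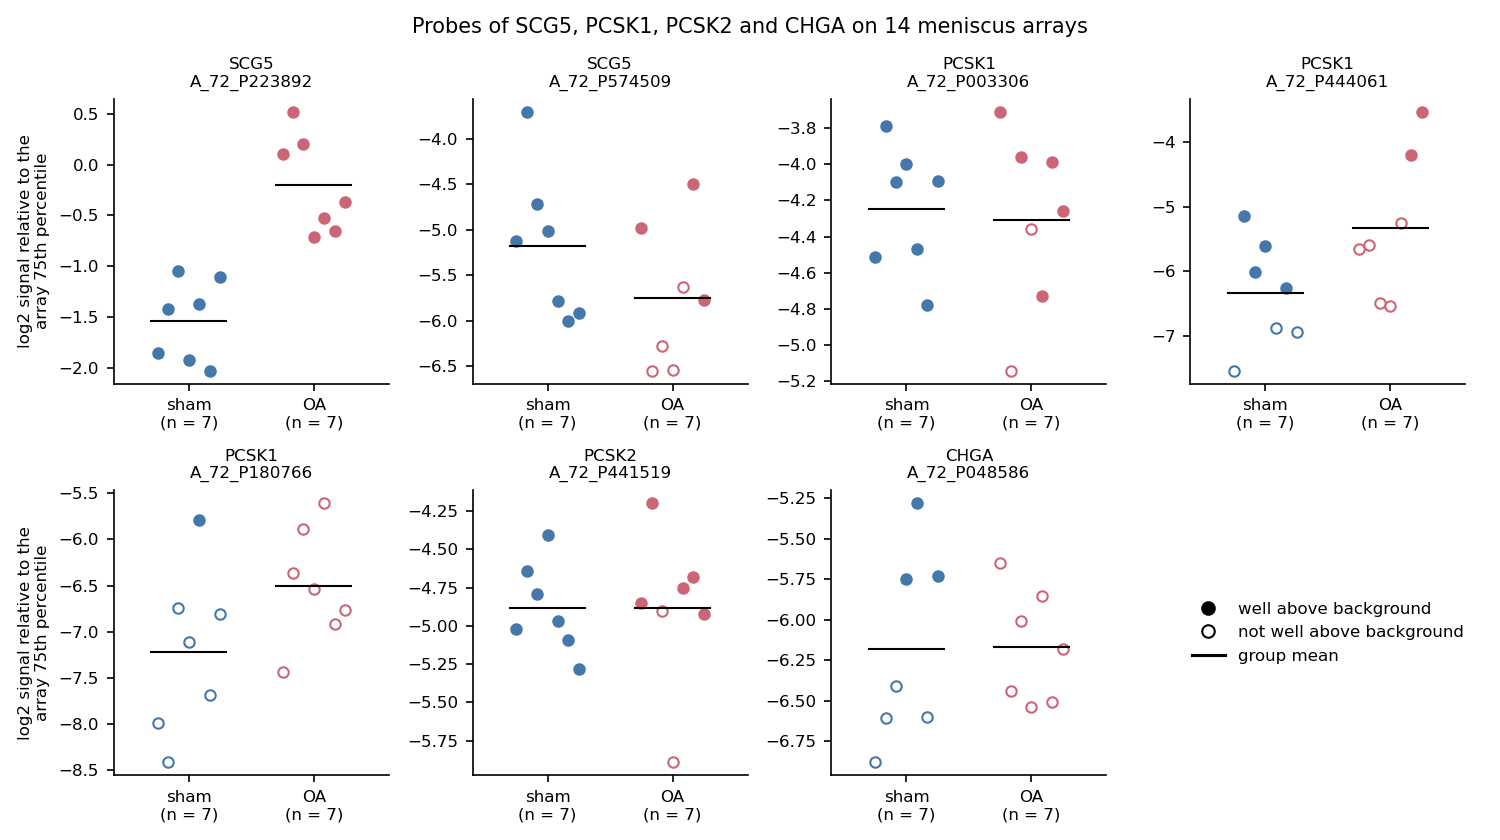
Relative level (log2 signal minus the array's 75th percentile) of each of the 7 member probes on 7 sham and 7 OA arrays; filled points are well above background, open points are not, and the line is the group mean. Every OA point of the SCG5 probe A_72_P223892 lies above every sham point, whereas the groups overlap for the other 6 probes.

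The SCG5 probe A_72_P223892 gave a signal well above background on every array. On the sham arrays its processed signal was 152 at the lowest, 165 at the median and 227 at the highest. On the OA arrays it was 95.3 at the lowest (OA 4), 242 at the median and 381 at the highest (OA 7). Before any scaling, 4 OA arrays thus lay above the highest sham array, 1 lay below the lowest, and the geometric mean was 1.2-fold higher in OA. 

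On the relative scale the groups of this probe came apart. The relative level ran from -2.03 over a median of -1.42 to -1.05 in sham, and from -0.71 over a median of -0.37 to 0.52 in OA. All 7 OA arrays lay above all 7 sham arrays, a pattern seen in that direction for 1.58% of tested probes. The sham mean was -1.54 ± 0.40 and the OA mean -0.21 ± 0.48 (SD, n = 7 each). Their difference was 1.33 ± 0.23 (SE) on the log2 scale, or 2.52-fold.

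The position of the probe in the order of signals on its own array needs no scaling factor. In sham it stood between the 55.1st and 66.3rd percentile of non-control probes, and in OA between the 69.6th and 78.5th. Those ranges did not overlap either. SCG5 was chosen for its level relative to the rest of the array, so the ranks describe the same difference and are no further evidence.

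The size of the SCG5 difference varied over the OA slides. Against the sham mean the relative level was higher by 1.64 for OA 1 on slide 3, by 1.41 on average for the 4 arrays of slide 4 and by 1.03 for the 2 arrays of slide 5. The arrays of slide 5, with 75th percentiles of 404 and 492, were close to the sham arrays in brightness, and their SCG5 signals of 258.5 and 381 were above every sham signal. The 2 sham slides had means of -1.57 and -1.50 for this probe. With array brightness as a covariate the fitted SCG5 change was 0.92 ± 0.36 (SE), and with no scaling it was 0.26 ± 0.31 (SE), against a median change of -1.12 over all tested probes in that unscaled fit. Within the sham group the relative level of SCG5 was lower on brighter arrays, with Pearson's r = -0.75 and Spearman's rho = -0.79 against log2 brightness (n = 7; exact permutation p = 0.085 and 0.048, or 0.17 and 0.096 adjusted over the 2 groups). Leaving out the 2 arrays farthest from the median brightness gave r = -0.87. Within the OA group r was -0.32 and rho -0.11 (n = 7; exact permutation p = 0.50 and 0.84, the same after adjustment), and r was 0.19 without the 2 farthest arrays. Brightness is subtracted in the relative level, so the measures share a term. The part of brightness and slide in the SCG5 difference was not tested beyond these values.

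**Figure D2:**
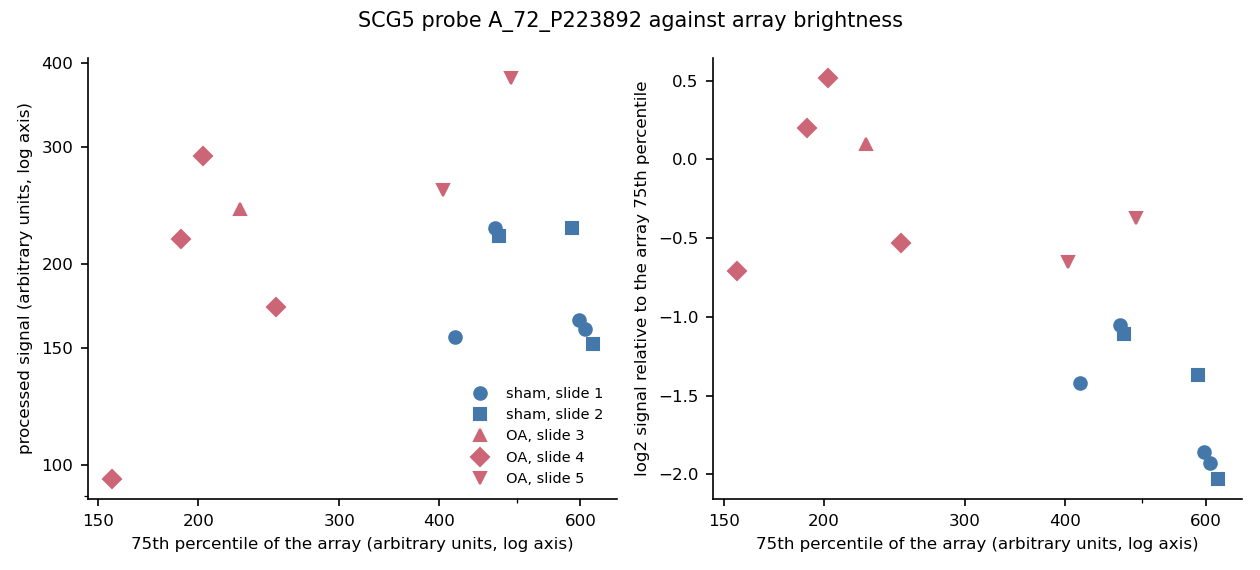
SCG5 probe A_72_P223892 on each array against that array's 75th percentile (log axis); the left panel shows the processed signal and the right panel the relative level, with a symbol for each slide. Signals of the groups overlap between 152 and 227, and the relative levels of the 7 OA arrays (-0.71 to 0.52) lie above those of the 7 sham arrays (-2.03 to -1.05).

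The second SCG5 probe, A_72_P574509, is assigned to the same transcript and had a lower mean in OA, without a stable sign. Its signal was 7.86 at the lowest, 17.2 at the median and 32.3 at the highest in sham, where all 7 arrays were well above background. In OA it was 1.68, 5.05 and 18.0, and only OA 1, OA 6 and OA 7 were well above background. The probe was thus at or near the background on the 4 arrays of slide 4.

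Its relative level was -6.00 to -3.70 in sham and -6.55 to -4.49 in OA, so the groups overlapped. The change was -0.57 ± 0.39 (SE, log2). Within the sham group the slides differed: the 4 arrays of slide 1 ran from -5.12 to -3.70, and the 3 arrays of slide 2 from -6.00 to -5.78. Slide 4 averaged -6.25 and slide 5 -5.13, which is 0.05 from the sham mean. Without slide 4 the change of this probe was 0.10 ± 0.46 (SE), and without slides 3 and 4 it was 0.05 ± 0.55. With normexp background correction it was 0.72 ± 0.18, in the authors' deposited table -0.28 and with array weights -0.17.

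Side by side, the changes of the 2 SCG5 probes were 1.33 and -0.57, 1.23 and 0.10 without slide 4, and 1.15 and 0.72 with normexp. The gap was narrower in those fits, but without slide 4 the probes still stood apart. The normexp fit adds an offset of 50 to every signal, which is above every signal of the second probe. In that fit the dim PCSK1 and PCSK2 probes A_72_P003306 and A_72_P441519 stood at 0.67 and 0.74. The median change over all tested probes was 0.34 there. No likeness of the 2 SCG5 probes is read from it. Among 630 genes with exactly 2 tested probes the median gap was 0.31, and 0.952% had a gap at least as wide as the 1.9 of SCG5. The gene was chosen for the rise of its brighter probe, so nothing is read from that share. The cause of the gap was not tested. No probe sequence is among the files used here, so the part of the SCG5 transcript that each probe reads is not given.

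PCSK1 is the convertase that starts the cutting of many precursors, and its 3 probes were dim. The probe A_72_P003306 was well above background on 7 sham and 5 OA arrays, all but OA 2 and OA 4. Its signal was 22.6, 27.4 and 38.0 (lowest, median, highest) in sham and 5.74, 12.2 and 25.7 in OA. Relative to the array the levels overlapped almost fully, at -4.78 to -3.79 in sham and -5.14 to -3.71 in OA. The change was -0.06 ± 0.23 (SE, n = 7 per group; 95% interval -0.54 to 0.42; limma adjusted p = 0.92).

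The other 2 PCSK1 probes were not tested. A_72_P444061 was well above background on 4 sham and 2 OA arrays. Its signal was 3.23 to 12.5 in sham and 1.68 to 6.57 on OA 1 to OA 5, but 21.9 on OA 6 and 42.2 on OA 7. The 2 arrays of slide 5 were thus the highest of all 14. No fold is given, since 3 of the 7 sham values were not well above background. The tested PCSK1 probe showed no such rise there: it read 25.5 and 25.7 on OA 6 and OA 7, inside its sham range. A_72_P180766 was well above background on sham 5 alone, at a signal of 10.6, and no fold can be given for it.

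PCSK2, the convertase that SCG5 serves, was read by A_72_P441519. The signal was 12.2, 18.3 and 28.5 (lowest, median, highest) on the sham arrays, all well above background. On the OA arrays it was 2.63, 9.27 and 16.2, with OA 3 and OA 4 not well above background. The relative levels lay within one another, at -5.28 to -4.41 in sham and -5.89 to -4.20 in OA. Both groups had a mean of -4.89, and the 95% interval of the difference ran from -0.47 to 0.47 (n = 7 per group; limma adjusted p = 1.0). Of the 7 OA values 2 were at the background.

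CHGA was at the limit of what the array could read. Its probe A_72_P048586 was well above background on sham 4, sham 5 and sham 7, at signals of 11.3, 15.0 and 8.9, and on no OA array. The other sham signals were 4.29 to 6.4 and the OA signals 1.68 to 6.8. The sham mean of the relative level was -6.18 ± 0.59 and the OA mean -6.17 ± 0.35 (SD, n = 7 each). Because every OA value was at the background, no fold is given, and a loss of CHGA in OA was neither shown nor measurable here.

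How far down an array could be read differed between the groups on the relative scale. The dimmest value marked well above background was -6.61 to -6.09 on sham arrays, -5.99 and -5.81 on OA 7 and OA 6, -5.24 and -5.14 on OA 1 and OA 5, and -4.63 to -4.49 on OA 2 to OA 4. The PCSK2 mean of -4.89 fell below that limit on OA 2 to OA 4, and the second SCG5 probe's OA mean of -5.75 on OA 1 to OA 5. The arrays' own values differed from these means: PCSK2 was above the limit on OA 2, at -4.20, and the second SCG5 probe on OA 1, at -4.98. The SCG5 probe A_72_P223892 lay far above the limit on every array.

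Around the 4 members, 164 other genes of the pathway were listed by role. Of these, 71 had a named probe and 62 were tested, with 1 probe standing for each gene (the one with the highest mean signal). Of the 62, 2 passed, both higher in OA, which is 3.23% of the list. With a random block for the slide (estimated correlation 0.225) or for the scan day 0 of the 62 passed in limma. Over all 2258 named genes 3.23% passed, 2.97% of them higher in OA and 0.266% lower. Of the 62 genes 28 had a positive and 34 a negative change, with a median of -0.03 against 0.00 over all named genes. At an unadjusted p under 0.05 there were 10 of the 62, against 7593 of all 38818 tested probes in the same fit. The unadjusted counts of the single lists below are to be set against that share of all probes, and no excess is read from them.

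**Figure D3:**
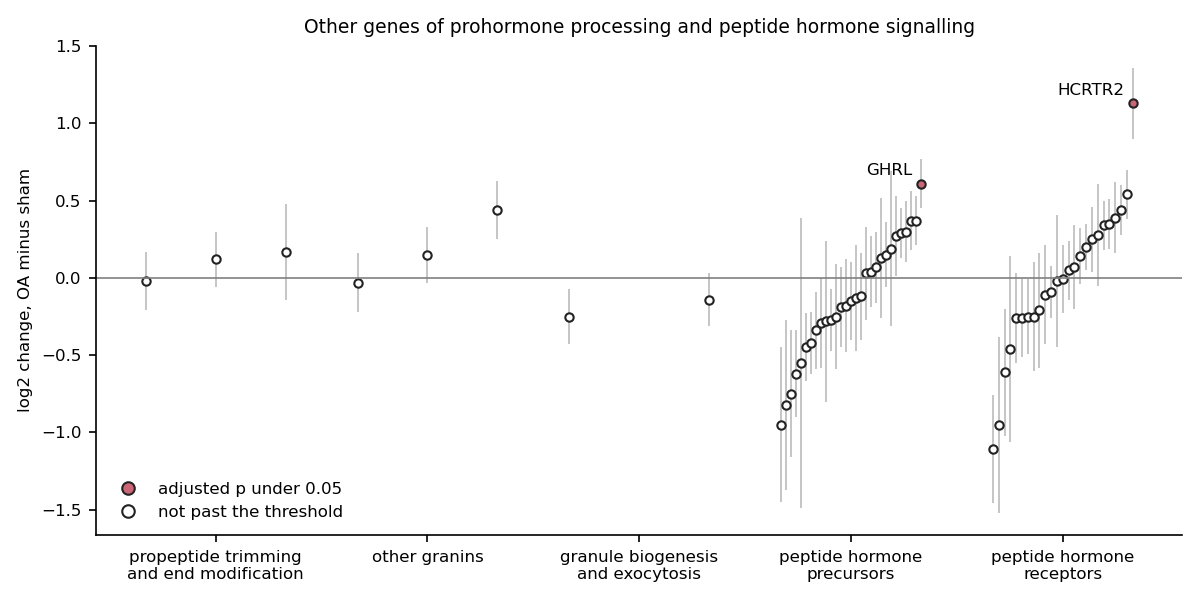
Change (log2, OA minus sham) of each tested gene of the pathway lists, in order within its list; bars are standard errors and filled points passed an adjusted p of 0.05. HCRTR2 at 1.13 and GHRL at 0.61 are the 2 filled points, and most of the other genes lie on both sides of 0.

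None of the 8 other convertases and convertase partners that were listed, among them FURIN and PCSK1N, carried a name here, and they were not analysed here. Of the 12 trimming and end-modifying enzymes, 3 were tested and 0 passed in limma (0 at an unadjusted p under 0.05). CPE, carboxypeptidase E, which removes basic residues after the convertases have cut, was well above background on all 14 arrays with signals of 569 to 3010 in sham and 555 to 3110 in OA. Its change was 0.17 ± 0.31 (SE; limma adjusted p = 0.81; 95% interval -0.49 to 0.82). CTSB, the lysosomal protease cathepsin B, stood at 0.12 ± 0.18, and its 3 other probes at -0.29, -0.29 and -0.58. All 7 CPE probes were tested, 4 with a positive and 3 with a negative change, between -0.53 and 0.17.

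Among the other granins, SCG2 and CHGB were measured, together with GNAS, the locus of a G protein subunit that also encodes a granin-like protein. With 1 probe for each gene 0 of the 3 passed in limma (1 at an unadjusted p under 0.05). SCG2, secretogranin II, stood at 0.44 ± 0.19 (SE; limma adjusted p = 0.22), with a median signal of 24.3 in sham and 15.0 in OA, while its other probe stood at -0.48 ± 0.31. CHGB, chromogranin B and the closest relative of CHGA on the array, stood at 0.15 ± 0.18 (limma adjusted p = 0.68).

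CHGB had 15 probes, of which 14 were tested, 7 with a positive and 7 with a negative change. Of the 14, 2 rose and 0 fell, against 2.89% of all tested probes that rose; these 2 are named after their values were seen. A_72_P658293 was higher by 0.90 ± 0.15 (SE; limma adjusted p = 0.0069). Its relative level was -2.65 to -1.95 in sham and -1.74 to -1.22 in OA, with no overlap, at signals of 86.5 to 158 and 57.3 to 148. A_72_P578318 was higher by 0.76 ± 0.15 (limma adjusted p = 0.011), from -2.13 to -1.43 in sham and from -1.16 to -0.81 in OA. 

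The unscaled signals of both CHGB probes overlapped between the groups. In the fit without scaling their changes were -0.17 and -0.31. With the slide as a random block neither passed (limma adjusted p = 0.075 and 0.12). Their adjusted p over 30 alternatives lay between 3e-04 and 0.57 and between 4e-04 and 0.37. The third CHGB probe of similar signal, A_72_P630013, was the one at 0.15, and the remaining 11 ran from -0.39 to 0.35.

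**Figure D4:**
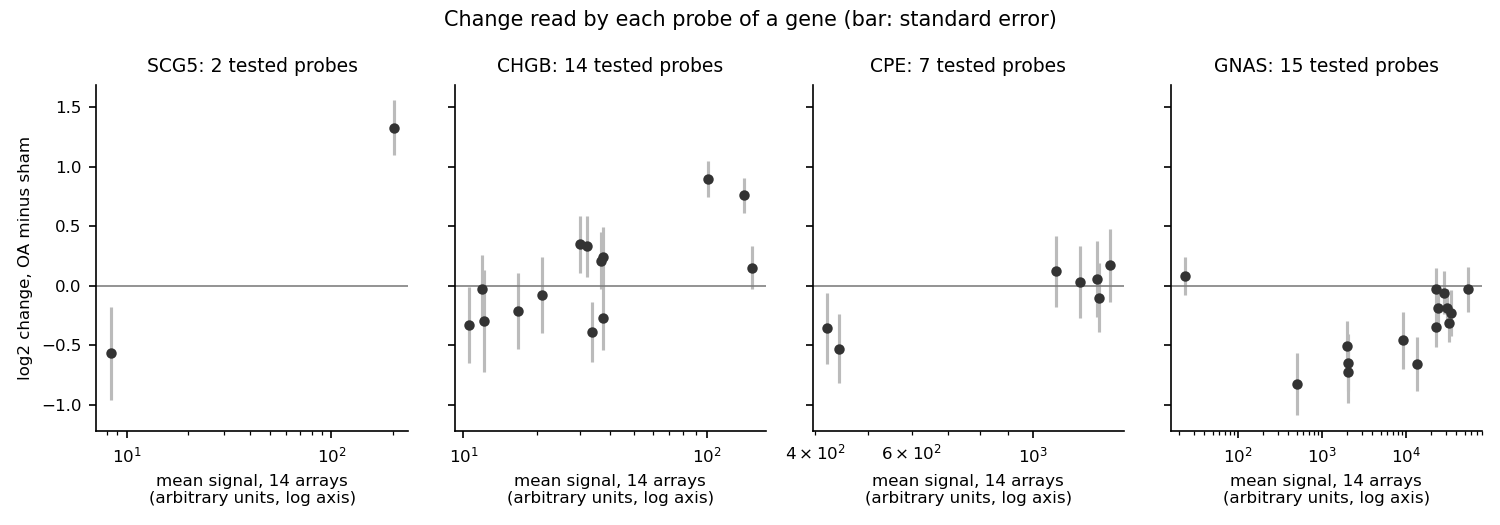
Change (log2, OA minus sham) of every tested probe of SCG5, CHGB, CPE and GNAS against its mean signal over the 14 arrays (log axis); bars are standard errors. The 2 SCG5 probes stand at 1.33 and -0.57, the 14 CHGB probes run from -0.39 to 0.90, the 7 CPE probes from -0.53 to 0.17 and the 15 GNAS probes from -0.83 to 0.08.

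Of 21 genes of granule formation and release only 2 were tested and 0 passed in limma (0 at an unadjusted p under 0.05). RAB27A, a small GTPase that docks granules at the plasma membrane, stood at -0.25 ± 0.18 and CLTC, the clathrin heavy chain, at -0.14 ± 0.17 (SE). Their dimmer probes, outside that count, stood at -0.53 ± 0.22 and -0.21 ± 0.15 (SE; limma unadjusted p = 0.025 and 0.17, adjusted p = 0.18 and 0.45). RAB3A had a probe that was too dim. 

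Of 59 peptide hormone precursors, the substrates of the convertases, 35 had a probe and 29 were tested; 1 rose and 0 fell in limma (3 at an unadjusted p under 0.05), and the median change was -0.15. GHRL, the precursor of ghrelin, whose maturation uses PCSK1, rose by 0.61 ± 0.16 (SE; limma adjusted p = 0.049), a 1.53-fold difference. Its relative level was -2.81 to -1.98 in sham and -1.91 to -1.29 in OA, so that no OA array overlapped a sham array. Its signals were 85.3 to 140 in sham and 41.4 to 171 in OA, which overlapped. The GHRL call was marginal. With a single array dropped it held only without OA 1, and it was lost without any one of sham 1 to sham 7 and OA 2 to OA 7. It passed in 10 of 30 alternatives, with adjusted p from 0.00062 to 0.46, and with no scaling the change was -0.46.

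The 4 precursors next in order of p did not pass. AGRP, a precursor that acts against melanocortin signalling, stood at 0.37 ± 0.16 (SE; limma adjusted p = 0.22). PDYN, prodynorphin, the precursor of opioid peptides cut by PCSK2, stood at -0.45 ± 0.22, below the sham mean on 7 of 7 OA arrays, and its dimmer probe at -1.20 ± 0.37 (adjusted p = 0.081). RLN2, a relaxin, stood at -0.42 ± 0.20 and its dimmer probe at 0.39 ± 0.48. GHRH, the growth hormone releasing hormone, stood at -0.62 ± 0.28, although only 2 of 7 OA arrays read it well above background. POMC, a classical substrate of both convertases, stood at -0.15 ± 0.25 at a mean signal of 448. Its dimmer tested probe stood at -0.69 ± 0.25 (limma adjusted p = 0.14) at a mean signal of 20.6.

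Of 59 peptide hormone receptors 27 had a probe and 25 were tested; 1 rose and 0 fell in limma (6 at an unadjusted p under 0.05), and the median change was -0.01. HCRTR2, the orexin receptor 2, rose by 1.13 ± 0.23 (SE; limma adjusted p = 0.015), a 2.19-fold difference, on 1 of its 2 probes. The other probe, at a mean signal of 2.41, was too dim to be tested. The tested probe had a signal of 267, 289 and 396 (lowest, median, highest) in sham and 176, 339 and 501 in OA. Its relative level was -1.22 to -0.31 in sham and -0.25 to 1.11 in OA, with all 7 OA arrays above all sham arrays. The HCRTR2 call was kept with each of the 14 arrays dropped in turn. It was lost with the slide as a random block (limma adjusted p = 0.15), and without slides 3 and 4 the change was 0.66 ± 0.28 (adjusted p = 0.38). Its adjusted p lay between 0.00082 and 0.84 in 30 alternatives, and with no scaling the change was 0.06. HCRT, the precursor of the orexins, stood at 0.29 ± 0.16.

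Of the other receptors, OPRL1, the nociceptin receptor, stood at 0.54 ± 0.16 (SE; limma adjusted p = 0.074) and its second probe at 0.35. SSTR3, a somatostatin receptor, stood at 0.44 ± 0.16 (adjusted p = 0.13) and AVPR2, the vasopressin receptor of the kidney, at 0.34 ± 0.16. SSTR2, another somatostatin receptor, stood at -1.11 ± 0.35 (adjusted p = 0.093) and was well above background on 4 of 7 OA arrays. 

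The genes whose relative level was most like that of the SCG5 probe A_72_P223892 were ranked by Pearson's r over the 14 arrays, among 2256 genes with 1 probe each. They were HCRTR2, TRIM26, ZAR1 and PRL, each at 0.97, and CCR10 at 0.96. All of them were well above background on 14 arrays, with changes of 0.98 to 1.16, so the difference between the groups is part of each r. The arrays also share their slide and their brightness.

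With the group means taken out, r came from the deviations of the 14 arrays alone. COL5A1, a chain of type V collagen, was then first at 0.96, followed by TRIM26, PRL and HCRTR2 at 0.92 and CCR10 at 0.91. Of the 3 tested probes of COL5A1 1 had a positive change, as did 1 of the 2 of TRIM26 and 2 of the 3 of PRL.

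The tissue label was set against markers. Of 11 meniscus and chondrocyte genes 4 carried a name: ACAN, SOX9, DCN and SPARC were well above background on all 14 arrays, and 0 of them passed in limma (0 at an unadjusted p under 0.05). Of 11 neuron and nerve genes only UCHL1 carried a name, and stood at 0.25 ± 0.31 (SE). SOX10, a transcription factor of Schwann cells, stood at 0.34 ± 0.22 (SE).

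Of 9 endocrine cell genes 4 had a probe. GCG, glucagon, was too dim to be tested, and INS, SST and POMC stood at 0.04 ± 0.23, -0.55 ± 0.94 and -0.15 ± 0.25 (SE). The dimmer tested probe of POMC stood at -0.69 ± 0.25 (SE). INS was well above background on 5 and SST on 4 of 7 OA arrays. Their summed level, in units of the array's 75th percentile, was 0.785 to 2.26 in sham and 0.664 to 1.69 in OA, which overlapped.

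Of 9 skeletal muscle genes 8 were tested and 2 rose, MYOD1 by 1.44 ± 0.24 and TNNI1 by 0.71 ± 0.18 (SE; limma adjusted p = 0.0070 and 0.041). Over all named genes 2.97% rose. MYOD1 was dim, and its unscaled signals overlapped, at 7.53 to 26.3 in sham and 11.5 to 26.3 in OA. The other TNNI1 probe, at a mean signal of 6.03, was too dim to be tested. Of the 8, 7 had a positive change and 4 an unadjusted p under 0.05. Their summed level was 3.22 to 4.26 in sham and 3.38 to 6.16 in OA. Of 5 tested adipocyte genes 1 rose, LEP by 0.74 ± 0.16 (adjusted p = 0.021), while its other probe stood at -0.34. FABP4, the brightest of the list, stood at 0.74 ± 0.63 (SE; limma adjusted p = 0.55), with a positive change for all 7 of its probes. LPL stood at 0.16 ± 0.49, ADIPOQ at -0.18 ± 0.27 and CIDEC at -0.34 ± 0.47 (SE). The adipocyte list had a summed level of 4.76 to 20.1 in sham and 5.89 to 32.5 in OA. Of 3 macrophage genes 0 passed in limma (0 at an unadjusted p under 0.05), with summed levels of 9.72 to 51.8 and 19.1 to 51.2. The part of these cell types in the SCG5 values was not tested.

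**Figure D5:**
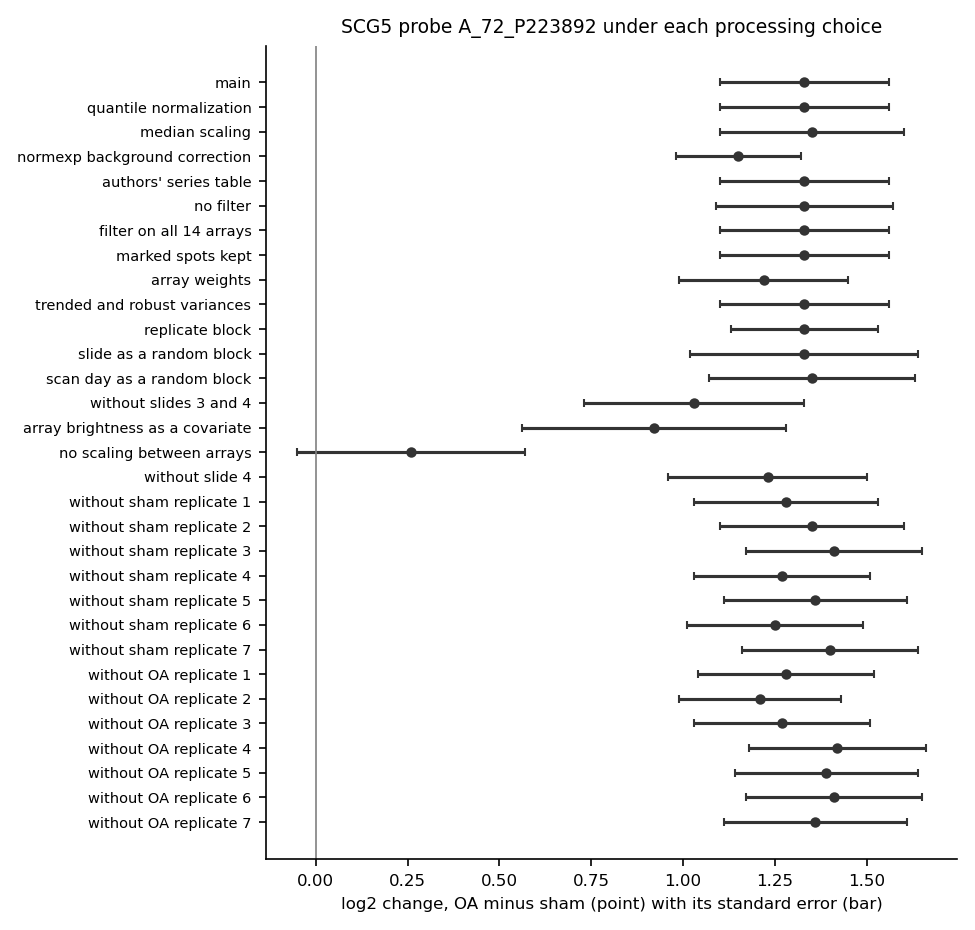
Change (log2, OA minus sham) of the SCG5 probe A_72_P223892 under the reported processing (main) and 30 alternatives; bars are standard errors. It stays between 0.92 and 1.42 in all of them but the fit without scaling between arrays, where it is 0.26.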

How the data were processed

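Per the file headers, the deposited files give each spot's intensity from Agilent Feature Extraction 11.0.1.1, background-subtracted and detrended within each array and not normalized between arrays. Other columns hold the scanner software's marks. The authors deposited a series table of log2 values with medians of 6.00 and a Spearman rho of 0.994 to 1.00 with the same array's signal; its scale and direction were inferred from that match, how it was normalized is unknown, and it served as an alternative. For relative levels the 75th percentile of each array was taken off the log2 processed signal; 82 marked spots were set missing and none was saturated. A probe with several spots was averaged. Tested were probes that 7 or more of the 14 arrays read well above background, with limma 3.58.1 in R 4.3.3 (lmFit, eBayes, two-sided, Benjamini-Hochberg over 38818 probes, threshold 0.05). The fit was first checked on simulated independent values. Those held no slide, scan day or brightness effect, so the check does not cover such effects. Each array was taken as 1 animal. Gene names came from matching unversioned RefSeq transcripts to the Sscrofa11.1 gene table (5461 of 5779 matched). No sequence or position is given, because no sequence table was used here. The normexp alternative used the median signal and median background, with an offset of 50.

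Named were all member probes; from each pathway list the genes past the threshold and up to 4 others with the smallest p (2 where none passed), with POMC, HCRT and 2 CHGB probes added after their values were seen; marker genes; and the 5 genes most like SCG5. The members and lists were chosen with earlier results of these data known. The fits without scaling and without slide 4 were chosen after seeing the data. One marker result is not reported here. The number of arrays limits the precision.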

Additional observations from a re-analysis of the deposited data

Results flagged for a closer look

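On OA 4 the PCSK2 probe A_72_P441519 had a relative level of -5.89, far below the other 6 OA arrays: its gap to the next array was 0.572 of the group's range, above the limit of 0.568 for 7 arrays. Its signal there was 2.63 and not well above background. It was the 1 such case in 14 groups of arrays looked at. Chance takes about 1 in 20 groups past the limit, so 1 case in 14 groups is near what chance gives. Without OA 4 the PCSK2 change was 0.17.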

How the results depend on the processing

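The change of the SCG5 probe A_72_P223892 stayed positive under all 30 alternatives; it was 1.21 to 1.42 with 1 array left out and moved by more than the spread between replicates in the fit without scaling (0.26). The count of member probes called was 1 with each array left out. It was 4 with normexp background correction (where 17636 of 38818 probes were called higher and the median change was 0.34), 3 without scaling (all lower; median change -1.12), and 0 with the slide as a random block, without slides 3 and 4, without slide 4 and with array brightness as a covariate. The 2 pathway genes called became 4 with quantile normalization and in the authors' table, 6 without a filter, 29 with normexp, 48 without scaling (all lower), and 0 with a random block for the slide or for the scan day, without slides 3 and 4, without slide 4 and with brightness as a covariate; with 1 array left out the count was 1 to 3. Near 0, the sign of PCSK1 A_72_P003306 turned with quantile normalization and in the authors' table (0.05), normexp (0.67), array weights (0.00), the slide block (0.02), without slides 3 and 4 (0.12) and without slide 4 (0.26); with 1 array left out it was -0.16 to 0.08. That of PCSK2 turned with quantile normalization (0.17), median scaling (0.01), normexp (0.74), the authors' table (0.11), array weights (0.16), the slide (0.02) and scan day (0.00) blocks, without slides 3 and 4 (0.08), with brightness (0.24) and without slide 4 (0.07); with 1 array left out it was -0.12 to 0.17. Of these, only the normexp values passed. The fit without scaling gave -1.13 and -1.07, which passed as lower (limma adjusted p = 0.0081 and 0.013). The median change over all tested probes was -1.12 in that fit. Causes were not tested.

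No pairing of animals by the numbers shared by sham and OA arrays was visible. Same-numbered arrays deviated with correlations of -0.192 to 0.275, over 0.1 in 2 of 7. Of the arrays, 0 sham and 1 OA correlated best with their own number. Same-numbered arrays lay on different slides, so these correlations cannot exclude a pairing. With the replicate block the pathway count was 1 (HCRTR2), the member count 1 and the SCG5 change 1.33. Dim signal limits PCSK1, PCSK2 and CHGA.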
